A study of Mus musculus with 18 samples.

Results

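Accessible chromatin inside introns was described in mouse CD4 T cells profiled by ATAC-seq, an assay that uses a transposase to insert sequencing tags into open DNA. The deposited table lists 65983 accessible regions, each with the genes it overlaps and a letter for the part of the gene: P, E or I, read here as promoter, exon and intron. A region was taken as intron-only when it listed at least 1 gene and every entry carried the letter I alone. There were 21558 such regions, 32.7% of all. The others were 22920 regions with a promoter letter, 4355 with an exon letter and no promoter letter, and 17150 with no gene entry.

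The 18 libraries form 6 groups of 3. Naive CD4 T cells were activated with beads carrying anti-CD3 and anti-CD28 and cultured in Th1 medium (IL2, IL12 and anti-IL4). Cells labelled Th1 were taken at 24 h, and cells labelled Tcmp or Teff at 72 h, each from Id3 knockout (Id3-KO) and wild type (WT); the labels do not spell out Tcmp or Teff. How Id3 was deleted, and the age, strain and number of animals, are not stated in the labels. A single list of regions served all 6 contrasts between these groups, and no value per library is in the table. The regions can therefore not be assigned to a genotype, a cell label or a time, and the values below have no replicate error. Fold changes and p-values were not used, because in each contrast the window with the best p-value stood first within its region in all 65983 regions, so that the statistics follow the order of the table and could not be tied to the regions.

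Introns hold much of the regulatory DNA of mammalian genes. Enhancers inside an intron bind transcription factors and can act on the promoter of the host gene or of a neighbour, and the introns of genes for lymphocyte transcription factors and cytokine receptors are known to carry several. Id3 binds E proteins, basic helix-loop-helix factors that recognise the E-box in such elements, and keeps them from DNA. Position inside an intron does not by itself make a region an enhancer.

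Most intron-only regions named a single gene. Of the 21558 regions, 20436 (94.8%) listed 1 gene, 1099 listed 2 and 22 listed 3. The remaining region listed 22 genes, 18 of them protocadherin gamma genes, adhesion molecules whose variable exons share one downstream part and whose introns overlap. Where several genes were listed, they lay on opposite strands in 695 regions and on the same strand in 427. Among regions of 1 gene, 10377 belonged to a gene on the plus strand and 10059 to one on the minus strand.

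The regions were spread over 7746 genes, of 22888 with any entry in the table. Over these 7746 genes, all with at least 1 region, the median was 2 regions per gene and the mean 2.93. A single intron-only region was found in 3716 genes (48.0%) and 2 regions in 1542. At the other end, 379 genes (4.89%) held 10 or more, and 5976 intron-only regions (27.7%) listed at least 1 of these 379. The 775 genes with the most regions, 10% of the genes, accounted for 40.4% of the gene entries. Intronic regions were thus unevenly shared among genes.

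**Figure D1:**
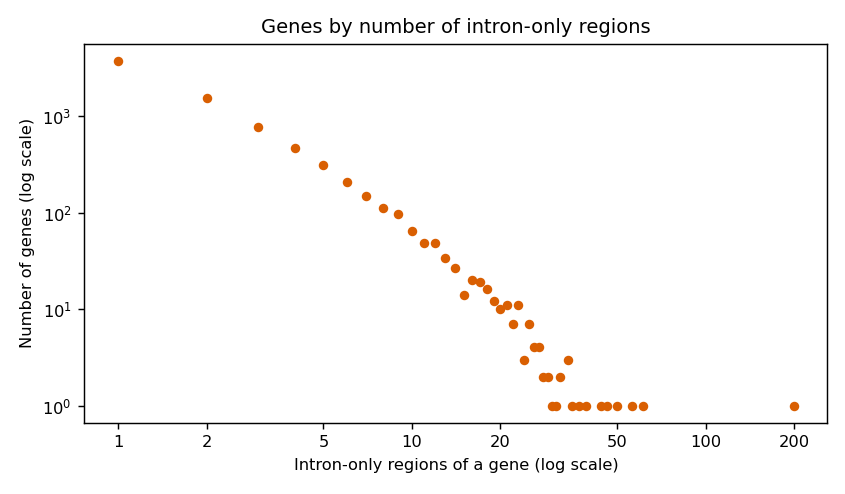
Number of genes (y axis, log scale) that hold a given number of intron-only regions (x axis, log scale); each point is 1 count of regions. The number of genes falls from 3716 with 1 region to 379 with 10 or more, and 1 gene model stands apart at 199.

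Apart from gene models that span megabases (described further on), the genes with the most regions included the lymphocyte transcription factors Foxp1 and Bach2, beside genes of other functions. Gene length was not taken into account in these counts. Foxp1, a forkhead factor that keeps naive T cells quiescent, had 56 intron-only regions within a span of 587 kb on chromosome 6, of which 25 listed Foxp1 alone and 31 also another gene model. The span of a gene is taken here, on GRCm39, from the first to the last region that lists it in any class, since exact gene ends are not in the table. Bach2, a repressor that restrains effector differentiation, had 50 within 344 kb on chromosome 4 (32238451 to 32582600). Of these 50 Bach2 regions, 48 followed one another in the table with no region of another class between them, the longest such run of any gene. Bach2 was also listed in 6 promoter regions, 4 of them with the promoter letter on Bach2 itself, and in 2 exon regions, 1 of them with the exon letter on Bach2.

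Wwox, an oxidoreductase gene that covers a common fragile site, had 46 regions over 861 kb of chromosome 8. Inpp4b, a phosphatase of phosphoinositides, had 44 over 563 kb of the same chromosome. Atxn1, a transcriptional corepressor, had 35. Lpp, a LIM-domain protein of focal adhesions, and Prkch, protein kinase C eta, had 34 each. The Prkch regions lay within 172 kb and those of Lpp within 587 kb, so the same number of regions came at 19.8 per 100 kb in Prkch and 5.79 per 100 kb in Lpp. Morrbid, a long noncoding RNA near the death gene Bcl2l11, also had 34.

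The rest of the 20 highest counts ran from 28 to 32. Rad51b, a recombination factor, had 32 and Hivep3, a zinc finger protein, had 32. Arhgef3, a guanine nucleotide exchange factor, had 31, and Pvt1, a long noncoding RNA beside Myc, had 30. Akap13, an anchor for protein kinase A, had 29, as did Maml2, a Notch coactivator. Arid1b, a subunit of the BAF chromatin remodeller, and Clec16a, a regulator of autophagy, had 28 each. In 11 of the 20 genes no intron-only region listed a second gene.

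Runs without interruption were not limited to Bach2. All 32 intron-only regions of Rad51b, all 28 of Arid1b, all 26 of Prkce (protein kinase C epsilon) and all 25 of Runx1 (a Runt-domain factor of T cell development) were consecutive in the table.

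**Figure D2:**
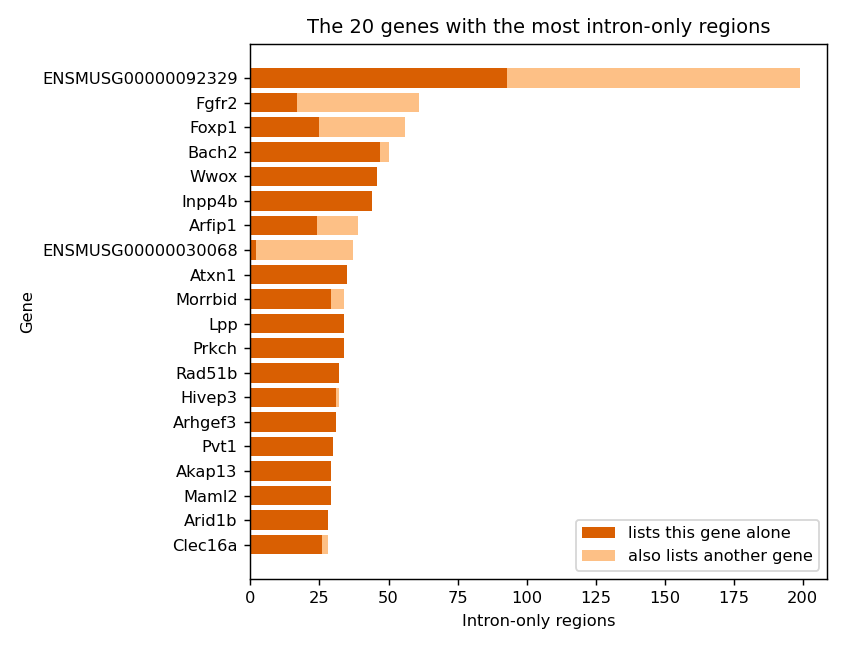
The 20 genes with the most intron-only regions, with the number of regions on the x axis. Dark bars count regions that list this gene alone and light bars regions that list another gene too; in ENSMUSG00000092329 the light part (106) exceeds the dark part (93), and in Bach2 47 of 50 are dark.

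Several of the highest counts belonged to gene models that contain many other genes. ENSMUSG00000092329, for which the table gives no symbol, had 199 intron-only regions on chromosome 8, the largest count of all. Its 364 regions of every class spanned 4420 kb (120637301 to 125058350) and listed 152 other genes. Of the 199, 106 also listed another gene, and for 93 it was the only entry. Ankrd11, a chromatin regulator inside this span, had 25 intron-only regions, of which 0 listed Ankrd11 alone.

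Fgfr2, a receptor for fibroblast growth factors, had 61 regions over 2860 kb of chromosome 7 and shared its regions with 32 other genes. Only 17 of the 61 listed Fgfr2 alone. Arfip1, which binds Arf GTPases, had 39 over 1390 kb of chromosome 3, with 10 other genes. ENSMUSG00000030068 overlapped Foxp1 on the same strand, and 31 of its 37 regions also listed Foxp1. Of the other 6, 4 listed a different gene and 2 listed it alone. When the entries of all 26 gene models that list 10 or more other genes were set aside, 21422 regions were intron-only. Of the 21558 members 140 then dropped out and 4 other regions came in. This setting was added with the counts already in view.

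Number and density ranked genes differently. Among the 1259 genes with 5 or more intron-only regions, the median density was 7.35 regions per 100 kb of span (quartiles 4.79 and 11.1). None of the 10 densest was among the 20 with the most regions, and 4 of the 10 had an Ensembl identifier only. Tent5c, a poly(A) polymerase, had 5 regions in 14.8 kb (33.9 per 100 kb). Usp12, a deubiquitinase, had 7 in 23.2 kb (30.1 per 100 kb). Mrpl1, a mitochondrial ribosomal protein, had 5 in 18.7 kb (26.7 per 100 kb). The span of the regions can be shorter than the gene, so these densities may be too high, the more so for genes with few regions.

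Il2ra, the alpha chain of the IL-2 receptor that is induced on activated T cells, was also among the 10 densest, with 8 regions in 30.2 kb (26.5 per 100 kb). Its intron-only regions lay on chromosome 2 between 11650001 and 11677400, at 2.1 to 28.9 kb from the promoter region. In order they held 6, 4, 8, 7, 13, 8, 2 and 6 windows, a window being the unit, 300 bp wide in regions of a single window, from which the authors built the regions. The widest, at 11659751 to 11660650, measured 900 bp and held 13 windows. It lay 11.8 kb from the promoter region and had no Il2ra exon within 5 kb.

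Erdr1, on chromosome Y in the table, was another of the 10, with 6 regions in 22.6 kb (26.5 per 100 kb). The Y chromosome had 15 regions in the whole table, 7 of them intron-only. On the autosomes the intron-only share of regions ranged from 27.9% (chromosome 7) to 38.1% (chromosome 16), and on X it was 27.4%.

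In fixed bins of 100 kb, 7841 bins held at least 1 intron-only region, with a median of 2, and 179 held 10 or more. The fullest bin held 23 regions, all in Bach2 (chromosome 4, 32300001 to 32400000). Atxn1 filled a bin with 22, and Prkch and Pip4k2a, a phosphoinositide kinase, 1 bin each with 20. Next came a bin at Bcl2, the survival gene, with 19. Bins with 18 were found at Ikzf1, Ptk2b, Abtb2 and Morrbid. Of these, Ikzf1 encodes Ikaros, a zinc finger factor of lymphocytes, and Ptk2b a focal adhesion kinase family member. In the bins at Bcl2, Ikzf1 and Morrbid a second gene model was listed too. The bin at Ikzf1 (chromosome 11, 11600001 to 11700000) thus did not hold Ikzf1 regions only. Ikzf1 regions from 11700951 on lay outside it.

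Genes of T cell function were then counted from 7 lists, 99 genes in all. Of these, 98 had a region of some class, 72 (72.7%) had an intron-only region, against 33.8% of all genes with an entry in the table, and 17 had 10 or more, against 1.66%. Together they accounted for 585 intron-only regions (2.71%). The medians given below for each list include genes at 0. On the same footing the median over all genes with an entry was 0. The lists were chosen with earlier results of these data known, gene length was not taken into account, and the shares are given as a description.

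T lineage factors, the transcription factors that set and keep T cell identity, held the most. All but Myb of the 13 genes had intron-only regions, with a median of 16 and a total of 235. After Foxp1 (9.55 per 100 kb) and Bach2 (14.5 per 100 kb) came Runx1 with 25 (11.3 per 100 kb). Tox, an HMG-box factor of thymic selection and exhaustion, had 23 within 303 kb, or 7.59 per 100 kb. Ets1, the founding ETS factor, had 22 within 115 kb, or 19.2 per 100 kb. Ikzf1 had 18 within 76.7 kb, or 23.5 per 100 kb. Bcl11b, which commits thymocytes to the T lineage, had 16 (18.2 per 100 kb), and Lef1, a partner of beta-catenin, had 15 (15.1 per 100 kb). Tcf7, which encodes TCF1 and is related to Lef1, had 4. Gata3, Satb1 and Zbtb7b had 2 each. The list thus split into 8 genes with 15 or more and 5 with 4 or fewer.

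TCR signalling genes had a median of 4 regions, and 17 of 19 had at least 1. Cblb, a ubiquitin ligase that limits activation, had 23. Fyn, a Src family kinase, had 22, and Prkcq, protein kinase C theta, had 20. Ubash3b, a phosphatase that opposes TCR signals, had 16 and Themis, a factor of thymocyte selection, 11. Ptprc (CD45) had 8 and Cd247, the zeta chain, 9. Cd4 had 3, on chromosome 6 between 124856751 and 124862600, of 5, 6 and 6 windows. Cd3e and the adaptor Lat had 0.

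Th1 programme genes had a median of 2.5, and 7 of 12 had at least 1. Stat4, which carries the IL-12 signal, had 13 between 52043201 and 52122750 on chromosome 1. These Stat4 regions held 2 to 9 windows, and 7 of the 13 had no exon of a listed gene within 5 kb. Il12rb2, the IL-12 receptor chain upstream of Stat4, had 6. Runx3 had 5 and Il18r1 had 4. Tbx21, the gene of T-bet, had 3 intron-only regions on chromosome 11, at 96994451 to 96994950, 97000551 to 97000950 and 97003301 to 97004000, of 5, 3 and 9 windows. Ifng, Cxcr3, Il12rb1, Hlx and Eomes had 0.

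Factors downstream of the receptor, NFAT, NF-kB and AP-1, had a median of 1, and 11 of 18 had an intron-only region. Nfatc2 had 19, Nfatc1 had 9 and Nfkb1 6. Batf, an AP-1 partner of IRF4, had 4 and Irf4 had 2. Fos, Jun, Junb, Jund, Egr2, Egr3 and Irf8 had 0. Most regions of this list thus lay in the NFAT genes.

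Co-stimulatory and inhibitory receptors had a median of 2, and 10 of 12 had an intron-only region, none of them 10 or more. Cd226 had 9, and Cd28 and Ctla4 had 5 each. The Cd28 regions held 4, 6, 8, 5 and 7 windows and those of Ctla4 5, 5, 3, 3 and 3, in order along chromosome 1. Tigit and Btla had 3, Icos, Pdcd1 and Havcr2 had 2, Lag3 and Tnfrsf9 had 1, and Cd27 and Tnfrsf4 had 0.

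Cytokine receptors and their JAK-STAT partners had a median of 3, and 13 of 18 had an intron-only region. Jak1 had 16, including one of 11 windows at 101039651 to 101040450 on chromosome 4. Il6ra and Tgfbr2 had 9 each, followed by Il2ra with 8 and Stat5b with 7. Stat3 and Jak2 had 4. Il2rb, Il2rg, Socs1, Socs3 and Cish had 0.

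E proteins and their Id inhibitors had 19 intron-only regions in 2 of the 7 genes (28.6%), beside 33.8% of all genes with an entry in the table. Counting genes at 0, the mean was 2.71 per gene, against 0.99 over all genes with an entry in the table. The value of 2.71 was the lowest of the 7 list means, close to co-stimulatory and inhibitory receptors (2.75) and to NFAT, NF-kB and AP-1 (2.78). The highest was 18.08, in T lineage factors. Tcf12, the gene of the E protein HEB, had 12 within 226 kb and Tcf4, the gene of E2-2, had 7 within 300 kb. Tcf3, which encodes E2A, had 4 promoter regions and 0 intron-only regions. Id1, Id2, Id3 and Id4 had 0 as well, with 1, 2, 2 and 1 promoter regions. The regions of the targeted gene are therefore all outside this class.

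**Figure D3:**
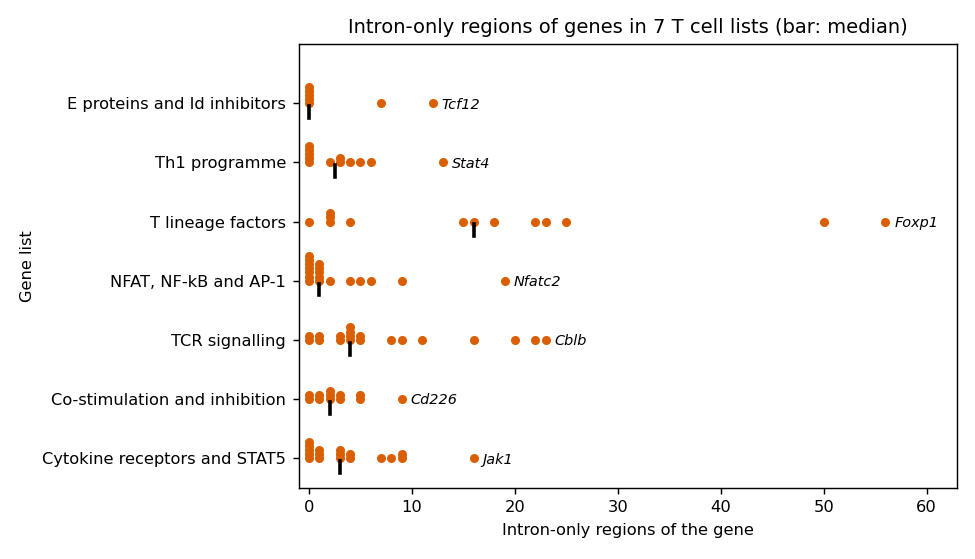
Intron-only regions of each gene (x axis, 1 point per gene, points of equal count stacked) in 7 T cell lists (y axis); the black bar is the median and the gene with the most regions is named. T lineage factors have a median of 16 and reach 56 at Foxp1, while 5 of the 7 E protein and Id genes are at 0.

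Marker genes of other cell types had few such regions. B cell markers had 11 in 3 of 7 genes, 7 of them in Ebf1, a B lineage factor, and 0 in Ms4a1, Cd79a and Cd79b. Myeloid markers had 6, in Itgam (4) and Spi1 (2). The 4 NK, 4 erythroid and 4 epithelial or stromal markers had 0. Of the 4 neuronal markers, Dlgap1, a synaptic scaffold, had 9, Rbfox1 2 and Csmd1 0. T cell markers had 22 in 6 of 10 genes. Small genes such as Cd3d and Cd3g were at 0 here too, so the counts are no measure of cell purity.

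**Figure D4:**
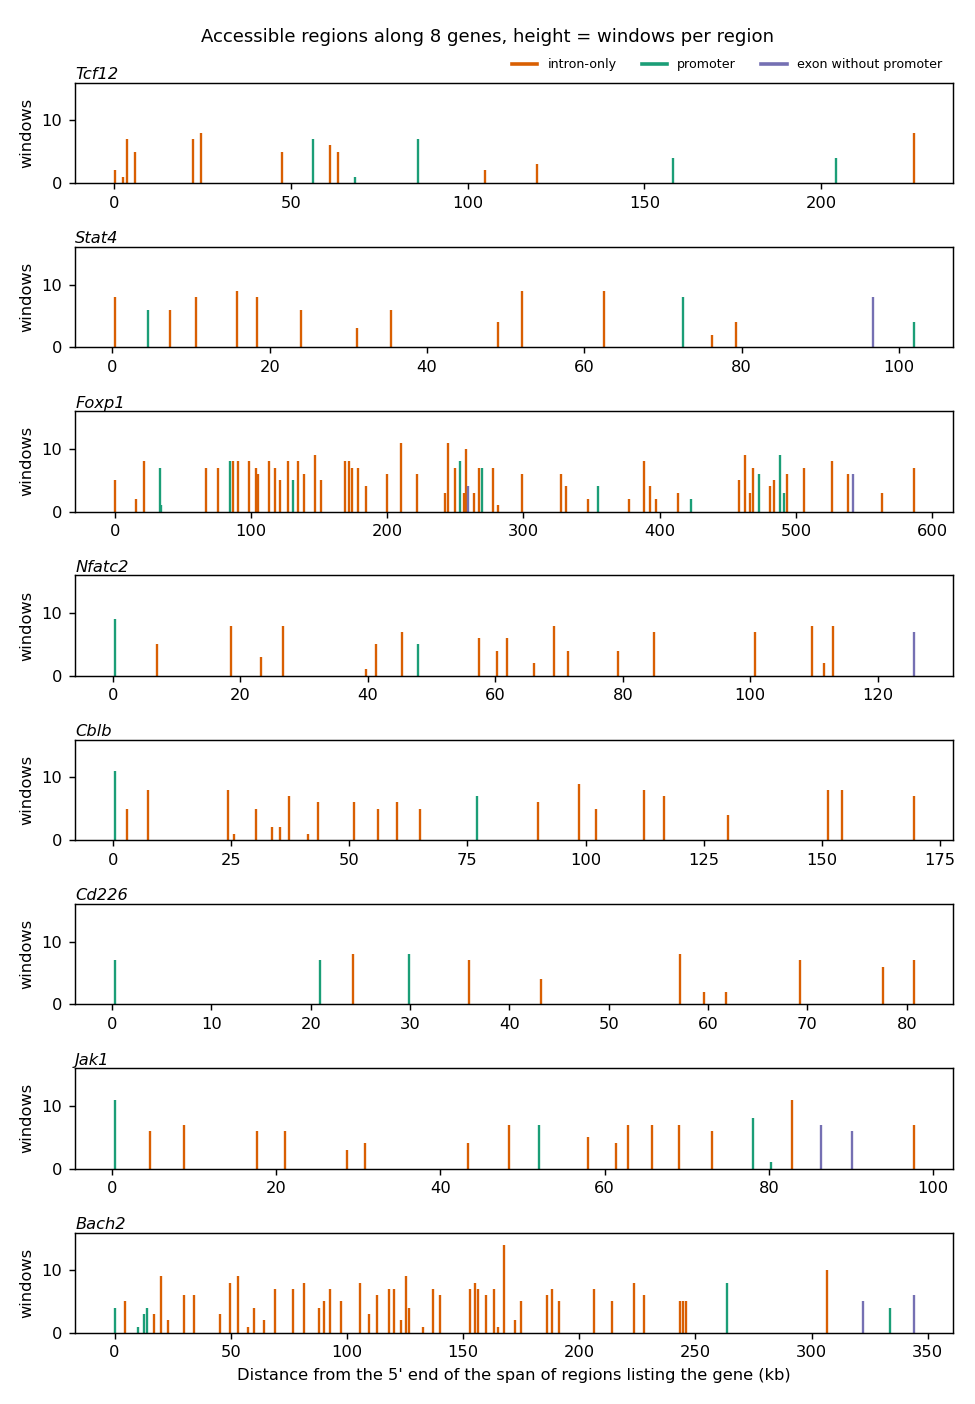
Regions along the gene with the most intron-only regions in each T cell list, and along Bach2: distance from the 5' end of the gene's span in kb (x axis) and windows per region (y axis), with colour for the class of the region over all genes it lists. The highest line among the intron-only regions, 14 windows, is in Bach2.

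The intron-only regions had a median width of 550 bp (quartiles 500 and 600, range 300 to 1050) and covered 11.6 Mb. They held 123775 windows, 30.2% of all, with a median of 6 (quartiles 4 and 7, maximum 15). Windows advance in steps of 50 bp, and in 98.2% of the intron-only regions the width was that of an unbroken series of windows. Width and window number are therefore nearly the same measure.

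Side by side, intron-only regions had the lowest mean number of windows of the 4 classes, 5.74 ± 2.13 (SD over 21558 regions), against 5.96 ± 2.13 in regions with no gene entry, 6.04 ± 2.08 in exon regions and 6.86 ± 2.43 in promoter regions. The first 3 distributions nearly coincide, and the differences among them are small beside their SD. Regions of a single window made up 4.72% of intron-only, 3.99% of regions with no gene entry, 3.86% of exon and 2.82% of promoter regions. Regions of 10 or more windows made up 2.24%, 3.29%, 3.44% and 12.0% in the same order. No test is given for these differences, since regions are not replicates.

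**Figure D5:**
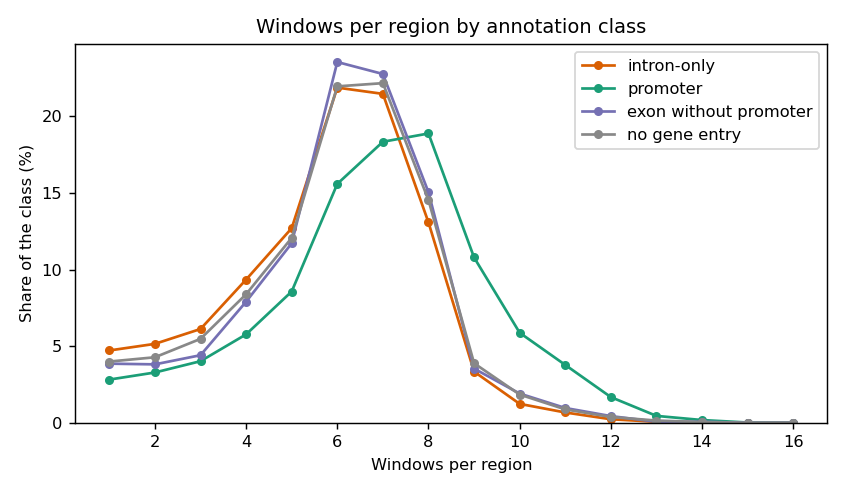
Windows per region (x axis) as a share of each annotation class in percent (y axis), 1 line per class. The intron-only line nearly overlies those of exon regions and of regions with no gene entry (medians of 6), and the promoter line lies to the right (median 7).

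Window number varied little among the intron-only regions themselves. The mean was 5.67 in genes with 1 such region and 5.77 in genes with 10 or more. It was 5.66 within 1 kb of an exon of a listed gene, 5.78 at 1 to 5 kb and 5.74 where no such exon was within 5 kb. By distance from the nearest promoter region of a host gene it was 5.75 within 10 kb, 5.78 at 10 to 100 kb and 5.67 beyond 100 kb. All these differences are small beside the SD of 2.13.

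The region with the most windows, 15 over 1000 bp, lay on chromosome 9 (45033001 to 45034000) in Scn2b, a sodium channel subunit, and Gm10684. Regions of 14 windows included one in Nek7, a kinase (chromosome 1, 138444601 to 138445550), one in Gm14164 (chromosome 2, 152205251 to 152206200) and one in Bach2. The Bach2 region (chromosome 4, 32405501 to 32406450) was 950 bp wide. It lay 95.4 kb from the nearest Bach2 promoter region, with no Bach2 exon within 5 kb.

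Many intron-only regions lay deep in their intron. The table gives distances to genes within 5 kb on either side. Of 65820 positions so implied, 6059 fell inside a region of the same gene, and the others could not be checked. Every one of the 6059 fell in a region with an exon letter, so the distances were read as distances to exons. No exon of a listed gene lay within 5 kb on either side of 9008 regions (41.8%). An exon lay within 5 kb on 1 side of 7000 (32.5%) and on both sides of 5550 (25.7%). Within 1 kb of an exon there were 4443 (20.6%). Where exons flanked a region of 1 gene on both sides within 5 kb, the nearer exon was the upstream one in 50.2% and the downstream one in 49.8% of 5120 regions.

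Depth in the intron differed between genes. In Bach2, 43 of 50 regions had no exon of a listed gene within 5 kb, and in Wwox 42 of 46. In Tox it was 20 of 23 and in Foxp1 40 of 56, where 31 regions also listed another gene, whose exons count too. In Nfatc2, by contrast, it was 4 of 19, and in Ikzf1 6 of 18. Neither Il18r1 nor Cd4 had such a region, but their spans of 14.6 and 8.75 kb leave little room for one.

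A promoter region of a listed gene existed for 18943 of the 21558 regions (87.9%). The median distance to it was 19.6 kb (quartiles 7.85 and 49.0). Within 10 kb there were 5876 (31.0% of the 18943) and beyond 100 kb 2160 (11.4%). The median distance was 75.9 kb in Bach2, 24.4 kb in Foxp1, 257 kb in Rad51b and 20.7 kb in Nfatc2. Promoter regions inside long genes shorten this distance, as in Foxp1, which had 8.

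Neighbouring regions were close. The nearest region of any class was at a median of 4.35 kb from an intron-only region, against 4.4 kb for promoter regions and 4.8 kb for regions with no gene entry. The nearest other intron-only region was at a median of 7.1 kb, and within 5 kb for 8983 (41.7%). No 2 regions of the table were closer than 600 bp. In Bach2 the median gap between successive intron-only regions was 3.65 kb, as in Prkch, and in Runx1 3.5 kb, while in Fgfr2 it was 17.5 kb.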

How the data were processed

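ATAC-seq libraries of 18 samples were summarised by the authors in a table of 6 contrasts between groups. The submitters' processing notes name the build GRCm39 and the tools BWA, edgeR, Picard and Trim Galore, with neither versions nor roles. The choice and merging of windows, the annotation and the promoter width are not stated there or in the labels. Per the file headers, the deposited columns hold positions, width in bp, the number of windows, the overlapping and neighbouring genes, and log2 fold changes and p-values. The deposited log2 fold changes and p-values were not used. Other deposited columns have no unit beyond bp and a count of windows. Depth per library is unknown.

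The 65983 regions of 1 contrast were read, since all 6 hold the same list. Each gene counts once per region. Of the 7746 gene names, 6772 (87.4%) matched a RefSeq symbol or synonym (GRCm38.p6, names only); 950 were Ensembl identifiers. Genes were named by count: the 20 with the most intron-only regions, the leading genes of each list, the densest genes with 5 or more and the regions with the most windows. Further list genes, including those at 0, and genes named for position were chosen after their values were seen. Density uses the span of regions, since no GRCm39 annotation was at hand, and was added after the table had been seen. Sequence and motifs were not analysed here. Single values of a few list genes are not reported here. The members and lists were chosen with earlier results of these data known. No test was run: regions are not replicates. Python 3.11.15, pandas 2.3.3, numpy 2.4.6 and matplotlib 3.10.9 were used. Classes, gene counts, gaps to the nearest region and the joining of close regions were tested on simulated data. Distances to exons and to promoter regions were not tested in this way.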

Additional observations from a re-analysis of the deposited data

How the results depend on the processing

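The number of intron-only regions (21558) stayed within 1.5 times under each setting tried: 21558 from each of the other 5 contrasts, 27594 with any intron entry, 20541 and 16098 with at least 2 and 5 windows, and 20436 with 1 gene listed. Genes with a region (7746) were 7580 with at least 2 windows and 7014 with 1 gene listed. Setting aside entries with an Ensembl identifier only, added with the counts in view, gave 21201 regions, but 1394 members left and 1037 other regions came in. The median of 2 regions per gene, the median width and the median window number kept their values under the settings tried for them. No paired analysis was possible because values of single samples are not in the table; leaving out each replicate could not be run either. Motif shares and an annotation of introns from gene models were not run either, as no genome of the build was at hand. Library depth is unknown, so what it limits was not judged.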

Other observations

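Some genes with many intron-only regions had no promoter region in the table used here. Of the 7746 genes with an intron-only region, 6149 (79.4%) also had a promoter region. The share was 73.2% of genes with 1 intron-only region and 93.4% of those with 10 or more. Of all 22888 genes with an entry, 20321 had a promoter region, a larger share than 79.4%. Among the 25 genes with 10 or more and no promoter region were Cdk6, a cell cycle kinase, with 25 intron-only regions, Ikzf1 with 18, Lef1 with 15 and Fli1, an ETS factor of blood cells, with 11. In Ikzf1 all 18 listed regions were intron-only, the widest of 750 bp and 10 windows at 11639901 to 11640650 on chromosome 11. Lef1 had 3 exon regions besides. In the other direction, 6149 of the 20321 genes with a promoter region (30.3%) also had an intron-only region, beside 33.8% of all genes with an entry.

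Unnamed gene models held a part of the class. Of the 7746 genes, 950 (12.3%) had an Ensembl identifier only. Among all 22888 genes with an entry it was 5312, a larger share. Such genes alone were listed by 1394 intron-only regions (6.47%).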
